A study of Mus musculus with 3 samples.

Results

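The comparison set a pool of females mated with normal males against a pool of females that had not mated. Its members were 2 of the 3 arrays of the series, chosen by the mating labels, and every probe that is not a control. All animals were adult CD-1 females in estrus, an outbred mouse stock, and the sample was total RNA of the utero-tubular junction, the narrow passage through which sperm leave the uterus and enter the oviduct. Each array held Cy3-labelled copies of RNA pooled from 10 females, and the third array held a pool mated with vasectomized males, whose ejaculate lacks sperm. The normal-mated pool therefore met sperm, seminal fluid and the act of mating together. The sources used here do not give how long after mating the tissue was taken.

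With 1 array per group there was no replicate of either condition, so no test was made, and a ratio compares 2 pools. A level is log2 of the signal relative to the 75th percentile of its array, and a ratio is the level in the normal-mated pool minus that in the not mated pool. A ratio of 1 is a 2-fold difference, which is the limit used for calling a gene higher or lower. Where only 1 of the 2 arrays was well above background, the ratio is a bound, written "at least". Of 41174 probes, 28878 gave a ratio, and they covered 19306 of 27669 gene names.

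The array printed a second or further probe for many genes, which gives a check within these 2 hybridisations. Of 6876 genes with several probes compared, 84.8% had all probes within 2-fold of each other. Bounds entered this count, and a probe whose bound gave no ratio was counted as 0. The share covers all such genes, whether or not they differed between the pools. Over all genes compared, 1894 lay 2-fold or more above the not mated level (9.81%) and 2546 lay 2-fold or more below it (13.2%). The median log2 ratio was -0.05. Among the genes with several probes, every probe of 317 was past 2-fold upward (4.61%), and every probe of 384 was past 2-fold downward (5.58%). The probe that gave the value of a gene did not always speak for the rest. By that probe, 561 genes with several probes were higher, and every probe was past 2-fold in 56.5% of them. Of 616 that were lower, every probe was past 2-fold in 62.3%. Another probe lay below 0 in 46 of the 561, and above 0 in 53 of the 616. The results below therefore favour genes whose probes agree, and give the range over probes for part of the genes that had several. For the others a single value stands, that of the brightest probe unless stated, and further probes can differ from it.

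After coitus the female tract of the mouse normally draws in neutrophils, secretes antimicrobial and mucous proteins and changes its steroid-dependent programme as progesterone follows estrogen. Interferon, NF-kB and hypoxia-inducible factors are general regulators of such epithelial responses, and each acts through short promoter motifs. The promoters shown next belong to genes that were much higher after normal mating and carry the motif named for their group. Capitals mark the motif. The letters are the 250 bases before the gene start, from RefSeq on build GRCm38.p6, read 5′ to 3′ on the strand of the gene.

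The interferon-stimulated response element (ISRE) was searched as GAAANNGAAA on both strands, so that overlapping matches merge into a single run of capitals.
Isg15, chr4:156200819-156201068, minus strand: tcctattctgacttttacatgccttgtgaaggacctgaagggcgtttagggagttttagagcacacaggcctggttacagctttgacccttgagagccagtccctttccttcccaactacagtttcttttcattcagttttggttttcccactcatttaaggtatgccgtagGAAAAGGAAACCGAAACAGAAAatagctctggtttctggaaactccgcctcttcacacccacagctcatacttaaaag
Rsad2, chr12:26456453-26456702, minus strand: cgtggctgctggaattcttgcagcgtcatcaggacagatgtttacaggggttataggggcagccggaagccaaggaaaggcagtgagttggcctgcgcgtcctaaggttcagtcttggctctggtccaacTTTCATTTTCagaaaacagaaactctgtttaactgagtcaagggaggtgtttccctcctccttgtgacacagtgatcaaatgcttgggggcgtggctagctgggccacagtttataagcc
Oas3, chr5:120777660-120777909, minus strand: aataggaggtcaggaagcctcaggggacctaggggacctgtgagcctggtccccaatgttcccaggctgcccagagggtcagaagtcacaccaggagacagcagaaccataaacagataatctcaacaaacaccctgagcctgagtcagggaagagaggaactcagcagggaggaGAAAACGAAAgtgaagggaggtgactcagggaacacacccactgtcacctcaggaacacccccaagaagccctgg
In Isg15, a ubiquitin-like protein attached to other proteins during antiviral defence, 3 overlapping matches began 78 bases before the gene start. Its level was 0.05 in the not mated pool and 3.80 in the normal-mated pool, a 13.5-fold difference on its only probe. Rsad2, the antiviral enzyme viperin, carried its match 120 bases before the start on the other strand. All 3 of its probes were higher, with ratios from 2.81 to 3.06. Oas3, which makes the oligoadenylates that switch on RNase L, carried its match 75 bases before the start, and its 2 probes gave 3.43 and 4.55.

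The kappaB consensus, the site of NF-kB, was searched on both strands by its degenerate consensus, and a palindromic match counts on each.
Cxcl1, chr5:90890995-90891244, plus strand: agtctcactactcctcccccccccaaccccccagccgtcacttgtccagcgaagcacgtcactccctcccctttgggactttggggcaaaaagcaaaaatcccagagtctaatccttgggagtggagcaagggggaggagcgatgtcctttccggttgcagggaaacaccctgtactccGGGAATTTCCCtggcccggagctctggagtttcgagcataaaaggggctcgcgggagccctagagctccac
Cxcl2, chr5:90903649-90903898, plus strand: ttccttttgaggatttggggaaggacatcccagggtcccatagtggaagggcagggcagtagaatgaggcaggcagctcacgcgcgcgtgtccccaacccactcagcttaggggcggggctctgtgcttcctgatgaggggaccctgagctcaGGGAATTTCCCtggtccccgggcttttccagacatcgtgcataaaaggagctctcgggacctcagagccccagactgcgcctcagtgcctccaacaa
Cxcl1 and Cxcl2 encode neighbouring chemokines that attract neutrophils, and in both the match lay between 100 bases upstream and the start. It began 71 bases before the start of Cxcl1 and 97 bases before that of Cxcl2. The level of Cxcl1 was -5.28 in the not mated and 0.49 in the normal-mated pool. Cxcl2 was not well above background without mating and reached -1.38 after normal mating, at least 25.4-fold higher.

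The third pair belongs to the genes that lead the several-probe genes, Dcpp2 and Dcpp1, secreted proteins first described in salivary glands.
Dcpp1, chr17:23880626-23880875, plus strand: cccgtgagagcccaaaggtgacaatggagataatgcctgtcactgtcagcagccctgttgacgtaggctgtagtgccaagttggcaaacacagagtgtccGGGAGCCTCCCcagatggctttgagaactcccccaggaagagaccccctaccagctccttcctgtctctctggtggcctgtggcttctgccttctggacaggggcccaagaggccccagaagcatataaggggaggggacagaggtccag
Dcpp2, chr17:23898472-23898721, plus strand: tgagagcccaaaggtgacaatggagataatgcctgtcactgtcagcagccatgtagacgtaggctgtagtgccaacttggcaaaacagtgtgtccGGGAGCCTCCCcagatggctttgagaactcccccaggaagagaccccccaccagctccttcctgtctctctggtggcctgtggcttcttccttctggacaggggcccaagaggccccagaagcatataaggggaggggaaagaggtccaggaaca
These windows were alike over most of their length: shifted by 5 bases, 75.9% of 295 bases of the 300-base windows were the same. That count used a single shift without gaps. The bases at the far upstream end line up at another shift, so the share understates how alike the windows are. Each holds a kappaB match, 150 bases before the start in Dcpp1 and 155 in Dcpp2. The genes are close copies, so their probes may read both transcripts and the values of the pair are not independent. Dcpp2 had levels of 0.64 and 5.67 in the not mated and normal-mated pools, and Dcpp1 had 1.64 and 6.47.

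A promoter match describes letters and not binding, and its background frequency differs widely between the motifs. The ISRE was found in the promoters of 3.65% of 12315 compared genes with an entry. It was found in 10 of the 21 antiviral effectors that were at least 2-fold higher and had an entry, in 7 of 10 such genes of the interferon gamma list and in 3 of 11 of the class I list. The kappaB consensus was in 12.3% of compared genes, in 3 of 8 higher chemoattractant genes and in 5 of 9 higher genes of the NF-kB list. The core of the hypoxia element, ACGTG or GCGTG, was in 62.6% of compared genes, and in 11 of 11 higher hypoxia genes and 14 of 15 higher glycolytic genes. Over all 32851 windows the shares were 3.44% for the ISRE, 8.46% for kappaB and 43.8% for the hypoxia core.

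The genes with several probes were ranked by their weakest-probe ratio, and the 25 largest in each direction are described next. Muc4, a membrane mucin that coats epithelia, was covered by 5 probes spread over chr16:32429715-32456889 on build mm7, all on the plus strand. Its 5 ratios lay between 4.82 and 5.24, although the levels of the probes in the not mated pool ran from -4.38 to -0.46. The brightest probe gave -0.46 without mating and 4.75 after normal mating, a 36.9-fold difference. The other membrane mucin of this group, Muc1, had levels of -1.38 and 1.43, with a weakest-probe difference of 6.30-fold. Galnt6, which starts mucin O-glycans, was 8.27-fold higher, with probe ratios of 3.05 and 3.10.

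Ptgs2, the inducible cyclooxygenase of prostaglandin synthesis, was covered by probes at chr1:150032900-150032959 and chr1:150033228-150033287 on build mm7. Their ratios were 4.46 and 4.49, from a level of -3.31 to 1.15 on the brighter probe. Slc5a1, the sodium-coupled glucose carrier, had levels of -4.15 and 0.19 and was 20.3-fold higher. Steap1, of a family of metal reductases, had levels of -0.14 and 4.10, with probe ratios of 3.92 and 4.24. These genes were low or moderate without mating and at or above the 75th percentile of the array after it.

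Gch1, the first enzyme of tetrahydrobiopterin synthesis, had probe ratios of 3.64 and 4.78. Ero1a and Qsox1, both oxidases that form disulfide bonds in secreted proteins, had weakest-probe differences of 10.2-fold and 7.10-fold. Prom1, the apical membrane protein prominin, had a weakest probe at 2.86. P2ry2, a receptor for extracellular nucleotides, was at 2.72, and Plaur, the urokinase receptor, had 2.60 and 2.61. The beta-defensin Defb1 had 2.52 and 2.60. The group also held Mdfi, Prok2, Apol7a, Ttc9, Mxd1, Trim30a and Ifi27l2a, with weakest-probe ratios between 2.52 and 3.54. The probes of Defb1 overlap in most of their bases, and so do those of Mdfi. For these genes the agreement of probes is a weaker check.

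At the other end, Pinlyp, named for a phospholipase inhibitor domain, had levels of 1.15 without mating and -4.08 after normal mating, and probe ratios of -5.24 and -5.22. Ces2b, a carboxylesterase, had levels of 4.97 and 0.55, with probe ratios of -4.55 and -4.43. Ihh, the hedgehog ligand that uterine epithelium makes under progesterone, had levels of 0.33 and -3.41, with probe ratios of -3.74 and -3.31. Igfbp3, which binds insulin-like growth factors, had levels of 2.97 and -0.22. Has2, a hyaluronan synthase, was 9.20-fold lower with probes at -3.23 and -3.20.

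Nkg7, of cytotoxic granules, had probe ratios of -3.40 and -3.08, and the mast cell chymases Mcpt4 and Cma1 had weakest-probe ratios of -2.68 and -2.63. Ednrb, an endothelin receptor, was at -2.93, and Lama2, a laminin chain of muscle basement membrane, at -2.49. Lef1, a transcription factor of the Wnt pathway, was 7.70-fold lower by its weaker probe. The remaining genes were Crybb1, Radil, Spon1, Tcf23, Mug2, Prtg, Cspg5, Krt36, Il17rb, Vgll3, Hemgn, Col22a1, Cyp2j11 and Gpr83, at -3.21 to -2.47 by the weaker probe. A probe of Mug2 matched more than 1 gene of its family.

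**Figure D1:**
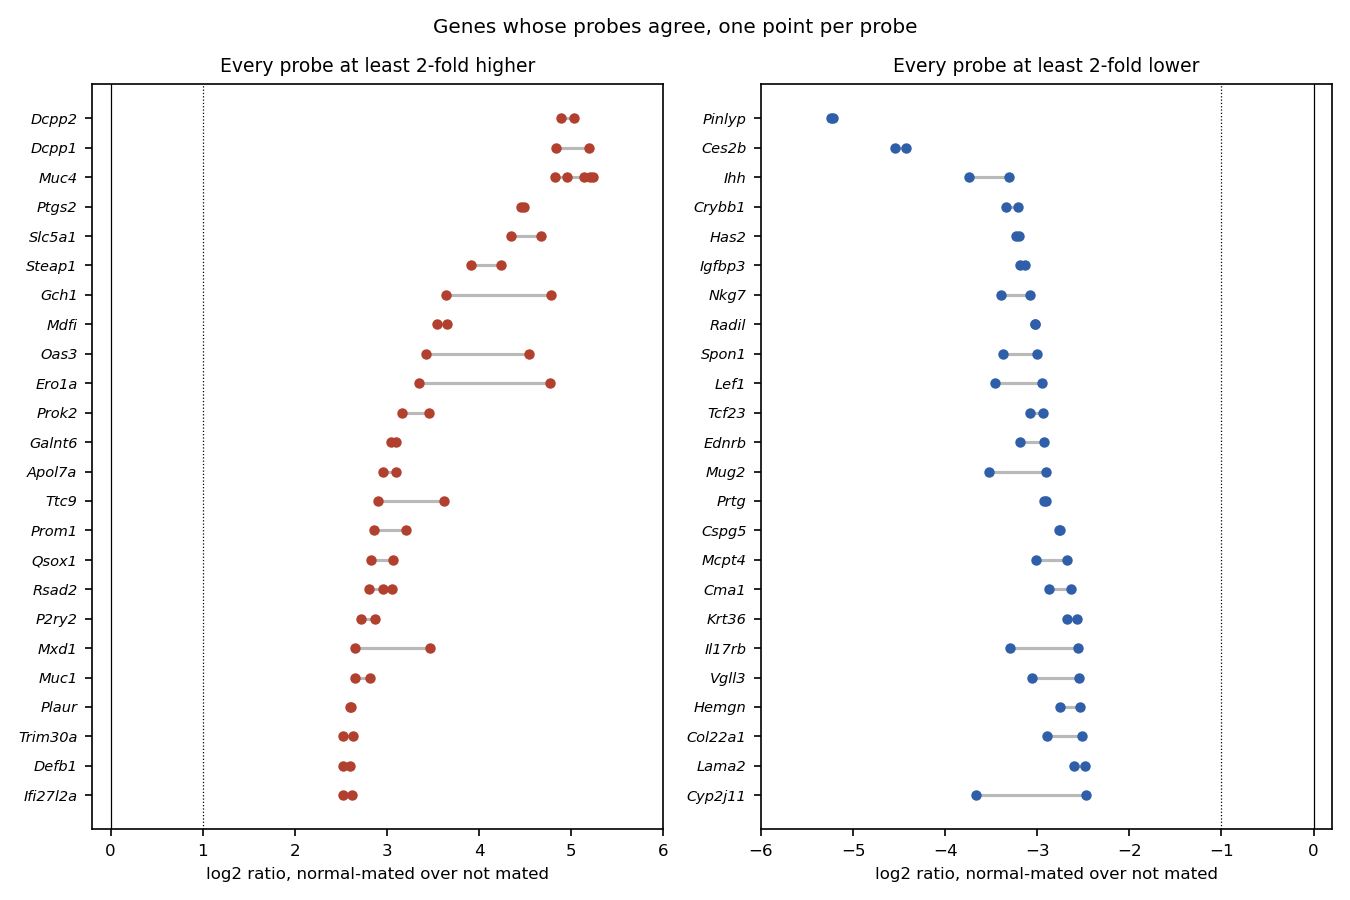
Log2 ratio of each probe (horizontal axis) for the 24 genes per direction with the largest weakest-probe ratio (vertical axis), 1 point per probe and a grey line over the range of a gene; the dotted line is 2-fold. The 5 points of Muc4 lie between 4.82 and 5.24, and those of Pinlyp nearly coincide at -5.24 and -5.22.

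Bounds with agreeing probes added genes that were close to background in 1 pool. Il1f9, the interleukin 36 gamma cytokine, was at least 57.4-fold higher, with probe bounds of 4.53 and 5.84. Trem1, an amplifying receptor of neutrophils and monocytes, was at least 21.8-fold higher, and Il1a at least 16.2-fold higher with bounds of 3.74 and 4.02. The stefin gene Cstdc6, the integrin Itga2, Oosp1, Slc16a14, Anxa13, Tg and Cyp11a1 followed, at 2.38 to 5.47. For Itga2 the second probe was weaker at 1.19. In the other direction the 10 largest were Ano2, Slc51a, Gria4, Lama1, Kcnh1, Myoz1, Gpr12, Ptgdr, Slc18a2 and Fam243. Their bounds ran from -6.42 to -1.63, and for Ano2 the second probe was much weaker at -1.64.

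A set of 245 probes was printed 10 times on each array, which shows how closely a spot repeats. Of these, 151 gave the value of a compared gene, with 27 genes higher and 32 lower by the 2-fold limit. Il1b, the main inflammasome cytokine, had a level of -3.85 ± 0.15 (SD over 10 spots) without mating and 1.43 ± 0.041 after normal mating. Spp1, the secreted phosphoprotein osteopontin, went from 1.07 ± 0.043 to 6.01 ± 0.043, and the glycolytic enzyme Pgk1 from 4.73 ± 0.028 to 6.88 ± 0.037. Spot SDs were 0.027 to 0.26 for the 20 genes plotted, while their ratios were at least 1.94 in size. These SDs cover hybridisation and scanning of 1 RNA pool and hold nothing about animals.

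Cdkn1a, an inhibitor of the cell cycle, had levels of -1.10 and 1.71, and the phospholipid-binding Anxa8 2.43 and 4.95. Tnf, Tnfrsf1b, Cd40 and Il6 were also among the 10 largest in this direction, with ratios of 2.44 to 4.65. For Tnfrsf1b the second probe read only 0.61. The largest lower ratios were those of Ihh (-3.74), Ngfr (-3.03), Nppa (-2.80) and Fgf10 (-2.71). Lama2, Igf2, Pecam1, Gli1, Reln and Pdgfra followed at -2.49 to -1.94. Ngfr, a neurotrophin receptor, had a second probe at -0.54.

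**Figure D2:**
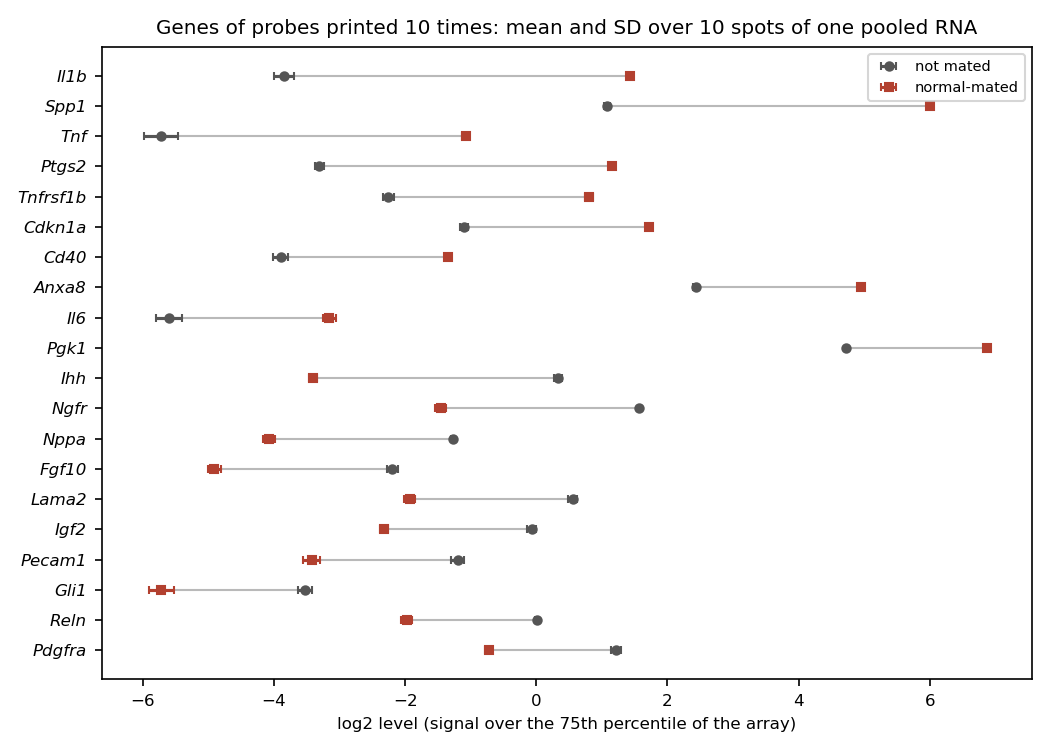
Log2 level (horizontal axis) in the not mated (grey circles) and normal-mated pool (red squares) for the 20 genes named from probes printed 10 times; bars are the SD over the 10 spots of an array. For each gene the distance between the pools is at least 1.94, against spot SDs of at most 0.26.

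Gene lists place these genes in their pathways. Each list was described by its counts and median, to be read against 9.81% higher, 13.2% lower and a median of -0.05 over all genes compared. Lists were not matched for level. Of genes measured on both arrays, 21.9% were lower in the dimmest quartile and 4.03% in the brightest. The list medians below kept their sign with quantile, cyclic loess and median scaling and with normexp background correction, except where stated. Scaling to the spike-in probes lowers the ratio of a gene measured on both arrays by 0.52, while bounds differ in other ways. List medians that turn negative on that scale are given, and most other positive medians were smaller there.

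Most genes of the neutrophil list were higher. Of 29 granule and surface genes compared, 21 were higher and 1, Ctsg at -2.19, was lower, with a median of 1.96 (1.30 without bounds). Retnlg and the lectin receptors Clec4d and Clec4e were at least 44.3-fold, 40.1-fold and 29.5-fold higher. Mpo (0.60), Ncf1 (0.59), Ncf4 (0.63), Itgb2 (-0.19) and Cybb (-0.88) were among the members within 2-fold. The genes well above background numbered 20 in the not mated and 29 in the normal-mated pool. The summed level of the 29 genes was 190 and 429 times the 75th percentile signal. That sum includes Ltf and Lcn2, which the list of estrogen-responsive uterine genes also holds. In whole tissue, fewer cells of a type and less RNA per cell cannot be told apart, nor can their opposites. Of 13 chemoattractants and growth signals, 9 were higher and 0 lower (median 1.94, but 0.87 with normexp and 0.85 without bounds), among them Il17c at 4.11 as a bound, whereas the growth factor Csf3 was at 0.51.

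Of 20 genes of the interleukin 1 and 36 family, 12 were higher and 1 lower (median 1.09), and 5 of the 7 genes with several probes were higher with every probe. The decoy receptor Il1r2 had levels of -4.33 and -1.36, with probes at 2.63 and 2.97. The receptor antagonist Il1rn read at least 38.4-fold higher by its brighter probe, while its other probe gave no ratio. The inflammasome adapter Pycard had probes at 1.45 and 1.52, and Il1rl1, the interleukin 33 receptor, was lower at -1.82. Among chemokines for monocytes, lymphocytes and eosinophils, 11 of 24 were higher and 4 lower (median 0.86, or 0.51 with normexp). Ccl28 (3.89), Ccl3 (3.60) and Cxcl16 (2.89) were highest, and the stromal chemokine Cxcl12 (-2.56), Cxcl14 (-2.13) and the eotaxins Ccl11 (-1.67) and Ccl24 (-1.24) were lowest.

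Some feedback inhibitors stood at the top of the NF-kB list, in which 13 of 25 genes were higher and 1 lower (median 1.13). Zc3h12a, an RNase that limits cytokine mRNAs, was at least 27.8-fold higher. Tnip3 was at 3.44 as a bound, Bcl3 at 2.62 and Nfkbie at 1.59. Other inhibitors, Nfkbia (0.71), Nfkbib (0.89) and Tnip1 (-0.05), lay within 2-fold. The subunits Nfkb1 (0.21) and Rela (0.06) also lay within 2-fold, and Traf1 was at -1.34. Of 18 pattern recognition receptors, 6 were higher and 0 lower (median 0.73), led by the muramyl peptide sensor Nod2 (2.76). In the JAK-STAT3 list 6 of 21 were higher and 3 lower, with a median of 0.38 that read -0.13 with spike-in scaling. Its feedback gene Socs3 was at 1.57 and the receptor chain Osmr at 1.38. The receptor chains Il6st (-0.71) and Lifr (-1.19) and the kinase Jak2 (-1.18) were not higher. The 5 probes of Lifr ran from -2.23 to -0.49.

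Of 25 acute phase and iron-handling genes, 16 were higher and 2 lower (median 1.53). Ceruloplasmin (Cp, 3.39), the iron exporter Slc40a1 (2.81) and haptoglobin (Hp, 2.28) were among them, while the heme scavenger Hpx was at -1.98 and the metallothionein Mt1 at 0.04. Of 26 antimicrobial and mucosal genes, 13 were higher and 0 lower (median 1.27, or 0.61 with normexp). Dmbt1, a scavenger protein of mucosal surfaces, was at 6.48, and Pigr, which carries antibodies across epithelium, at 3.56. Slpi and Lypd8 each had a second probe at 0.2 beside 2.67 and 2.64. For complement and coagulation, 9 of 32 were higher and 5 lower, with a median of -0.08 that read 0.11 with normexp. Tissue factor F3 (-1.88) and the fibrinogen chains Fgg (-1.97) and Fga (-2.34, a bound) were lower.

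Interferon-induced antiviral effectors formed the list with the highest median. Of 34 genes, 0 were lower and 32 higher, with a median of 2.54 (2.02 with spike-in scaling). Of the 16 with several probes, 13 were higher with every probe. Zbp1, a sensor of nucleic acids, was at 5.11, and the transcription factor Irf7, which amplifies interferon synthesis, had levels of -1.07 and 2.61. The 2 exceptions were Bst2, already at 5.10 without mating and at 5.66 after, and Ifit2, with probes at 0.10 and 0.17 although Ifit3 was at 2.62. In the vasectomized-mated pool the level of Oas3 was -4.12, close to the not mated level of -4.51 and far from 0.04 after normal mating. For Isg15 that pool read 3.16, near the normal-mated 3.80. That array was much dimmer, with a 75th percentile signal of 295 against 874 and 708, and it also had 1 replicate.

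In the interferon gamma list 12 of 22 genes were higher and 2 lower (median 1.14). The GTPases Ifi47 (2.37) and Gbp3 (2.22) and the receptor chain Ifngr2 (2.05) were higher, whereas Ifng itself was at -1.24 and Ido1 at -1.88 as a bound. Of 17 interferon regulatory factors and STATs, 4 were higher and 4 lower, with a median of 0.20 that read -0.32 with spike-in scaling. Stat4 (-1.33), Stat5a (-1.34) and Irf8 (-1.12) were lower. Of 16 antigen processing and class I genes, 12 were higher and 0 lower (median 1.24), with the proteasome activator Psme2 at levels of 4.83 and 6.60. Class II presentation went the other way, with 0 of 10 higher and 5 lower (median -0.76, but -0.22 with normexp and -0.32 with no filter on dim probes). All 4 probes of H2-Ab1 lay between -1.42 and -1.28, and H2-Aa had levels of 0.66 and -1.27.

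Cytotoxic lymphocyte genes were low. Of 25 T and NK cell markers, 0 were higher and 17 lower (median -1.79, and -0.49 with normexp). Xcl1 (-3.50), granzymes Gzmb (-3.46) and Gzmc (-3.36), perforin Prf1 (-2.65) and Il2rb (-2.53), a receptor chain of NK cells, were among the lower genes. The NK receptor Ncr1 was at least 8.63-fold lower. T cell genes were not uniform: Cd3g was at -2.61, but Cd3e (0.01), Lck (0.04) and Zap70 (0.53) lay within 2-fold. The genes well above background numbered 25 without mating and 21 after normal mating, and the summed level was 8.15 and 4.31.

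Of 12 genes of mast cells, basophils and eosinophils, 0 were higher and 6 lower (median -0.95, or -0.43 with normexp), with Cpa3 at -2.57 beside both chymases. Macrophage and dendritic cell genes split, with 4 of 20 higher and 4 lower and a median of -0.06 that read 0.04 with median scaling. Arg1, the arginase of alternatively activated macrophages, had levels of -1.86 and 3.99, and Cd68 was at 2.94, whereas Mertk (-1.67), Cx3cr1 (-1.54) and Itgax (-1.35) were lower. Of 10 B and plasma cell genes, 1 was higher and 2 lower (median 0.38, or -0.14 with spike-in scaling).

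Of 21 cornified envelope and squamous genes, 10 were higher and 2 lower, and most of the higher ones were small proline-rich genes, among them Sprr2k (5.70), Sprr2b (5.49), Sprr1a (4.87) and Sprr2g (4.66). The transglutaminase Tgm1, which cross-links the envelope, was at 2.62. The envelope proteins Lor (0.38), Evpl (-0.76) and Cnfn (-0.63) lay within 2-fold, and Ppl with both probes (-1.70 and -1.55) and the protease Klk8 (-2.27) were lower. The median of 0.99 read 0.52 with normexp, 0.30 with no filter on dim probes and 2.62 without bounds. The Sprr2 genes are near-identical genes, so their signals cannot be separated fully, and Sprr2a1 read 0.18 by its bright probe and 9.13 by the other. Of 19 keratins, 7 were higher and 3 lower (median 0.69, or 0.42 with quantile scaling), with Krt20 at 4.15 and Krt15 at 2.24, and Krt36 (-2.67) and Krt23 (-2.64) lower. Of 30 mucins and enzymes that glycosylate them, 13 were higher and 3 lower (median 0.92), and 6 of the 12 with several probes were higher with every probe. Muc20 had levels of 1.53 and 5.04, and the fucosyltransferase Fut2, which makes H antigens, -1.68 and 0.92. The gel-forming Muc5b (0.74) and Muc16 (0.33) lay within 2-fold, and B3gnt5, an enzyme of lactoseries glycolipids, was at -2.35.

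Of 33 junction genes, 10 were higher and 3 lower, with a median of 0.47 that read -0.04 with spike-in scaling. Pkp1 (2.58), Cldn4 (2.28) and the connexin Gjb2 (2.23) were highest and Cdh16 (-3.02) was lowest. Of 36 cathepsins and protease inhibitors, 14 were higher and 2 lower (median 0.68), with the serpins Serpinb5 (3.46) and Serpinb11 (2.82) and the cysteine cathepsins Ctsl (1.59), Ctsh (1.56) and Ctsc (1.51). Of 12 mesothelial and other epithelial markers, 6 were higher and 0 lower (median 1.03), including Krt14 (1.74) and Msln (1.42).

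Hypoxia and glycolysis genes were often higher, while genes of the respiratory chain lay within 2-fold with 1 exception (Cox5a, 1.13). Of 23 genes of glycolysis and lactate export, 0 were lower and 15 higher (median 1.30, and 0.78 with spike-in scaling). Of its 12 genes with several probes, 6 were higher with every probe. The lactate carrier Slc16a3 had levels of -0.08 and 4.54, hexokinase Hk2 0.48 and 3.61, and lactate dehydrogenase Ldha 5.08 and 6.79. Among isoforms, Hk1 was at -0.84, Pfkm at -0.79 and Ldhb at -0.29. Of 30 hypoxia genes, 13 were higher and 2 lower (median 0.85). Egln3, a hydroxylase that marks HIF for destruction, had levels of -2.09 and 4.40, but Hif1a (-0.95) and Epas1 (-0.74) lay within 2-fold and the glucose carrier Slc2a3 was at -2.26. Of 30 genes of the TCA cycle and respiratory chain, 1 was higher and 0 lower (median 0.30, or -0.22 with spike-in scaling).

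In the list of cholesterol and fatty acid synthesis 12 of 29 genes were higher and 1 lower (median 0.72). Mvd (2.84), Idi1 (2.00, with probes from 1.64), Hsd17b7 (1.73) and Cyp51 (1.63), all enzymes of the sterol route, were higher. Scd1, the stearoyl-CoA desaturase, was at -1.33, and Fasn (-0.76) and Acaca (-0.92) of fatty acid synthesis were within 2-fold. Of 28 genes of the unfolded protein response and secretion, 4 were higher and 0 lower (median 0.50, or -0.01 with spike-in scaling). For 31 NRF2 and oxidative stress genes, 3 were higher and 3 lower (median 0.23, or -0.28), with Hmox1 at 1.98 and glutathione reductase Gsr at 1.43. Heat shock genes numbered 1 higher and 1 lower of 15, with a median of -0.08 that read 0.02 with median scaling.

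Of 27 uterine genes that respond to progesterone, 3 were higher and 18 lower (median -1.67, or -1.01 with normexp), and 7 of the 14 with several probes were lower with every probe. The pathway of Ihh reads out in stroma through Gli1 (-2.19) and Hhip (-1.93, a bound), and its ligand was 13.3-fold lower. Hand2, a stromal target of the progesterone receptor, had both probes at -2.41 and -2.39, and the receptor Pgr was at -1.71. Areg (3.21, a bound), Wnt4 (1.83) and Foxa2 (1.65) were the higher members. Estrogen-responsive genes were mixed, with 10 of 28 higher and 4 lower and a median of 0.10 that read -0.01 with quantile and -0.42 with spike-in scaling. Muc1 (2.81), Gjb2 (2.23) and Ltf (1.22) were among the higher genes. Esr1 was at -0.89, Greb1, a direct target, at -2.31 and the water channel Aqp8 at -3.70.

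Of 24 steroid and nuclear receptors, 1 was higher and 7 lower (median -0.63). Pparg was the higher gene (1.81), and Nr5a2 (-1.31) and the oxysterol receptor Nr1h3 (-1.14) were lower. Of 17 genes that respond to glucocorticoids, 3 were higher and 7 lower (median -0.91). Tsc22d3, the glucocorticoid-induced leucine zipper, had levels of 3.03 and 0.77 and all 3 probes between -2.26 and -2.16. Fkbp5, a chaperone that restrains the glucocorticoid receptor, had all 3 probes between -1.67 and -1.55. In the vasectomized-mated pool Tsc22d3 read 3.38, near its level without mating.

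Hormone-converting enzymes differed in both directions, with 5 of 22 higher and 4 lower (median 0.08, or -0.45 with spike-in scaling). Hsd17b2, which inactivates estradiol, had levels of -4.56 and 1.94. Hsd11b2, which inactivates glucocorticoids, had -1.31 and -5.96, Dio3, which inactivates thyroid hormone, 1.05 and -3.94, and Srd5a1, a steroid reductase, 3.05 and 0.38. In the retinoid list 4 of 21 were higher and 5 lower (median 0.18, or -0.33 with spike-in scaling). The synthesis gene Aldh1a3 (2.76, second probe 1.2) was higher, and the degrading enzymes Cyp26a1 (-3.94) and Cyp26b1 (-1.89) were lower. Of 19 clock genes, 1 was higher and 5 lower (median -0.53). Bhlhe40 was at 2.98, and Per3 (-2.84), Hlf (-2.45), Tef (-1.53), Per1 (-1.45) and Per2 (-1.28) were lower. A second probe of Per2 read -0.54, and the probes of Tef ran from -1.75 to -0.98.

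Genes that mark position along the tract differed between the pools. Of 9 Hox genes of groups 9 to 13 compared, 0 were higher and 6 lower, and the median was -2.09. The 6 lower genes were all of the A and D clusters: Hoxa9, Hoxa10, Hoxa11, Hoxd9, Hoxd10 and Hoxd11. The others, Hoxb9 (-0.32), Hoxc9 (-0.38) and Hoxc10 (-0.94), lay within 2-fold. The 21 genes of groups 1 to 8 had 3 higher, 2 lower and a median of -0.19. Hoxa11, a uterine gene, had levels of 2.65 and -0.87, Hoxa10 was at -2.89, Hoxa9 at -1.36 and both probes of Hoxd9 were at -2.31 and -2.09, whereas Hoxc4 was at 2.37. The whole list of 30 had a median of -0.36. The uterine gland proteases Prss28 (5.80 and -3.46) and Prss29 (6.36 and 1.82) had lower levels after normal mating, and 9 of 19 uterine gland and luminal genes were lower and 7 higher (median -0.54).

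Of 34 genes of motile cilia, 23 were higher and 2 lower (median 1.32). Foxj1, the regulator of multiciliated cells, had levels of 1.74 and 3.61, and Ccno (2.36), Dnali1 (2.25), Sntn (2.14) and both probes of Tekt1 (1.93 and 1.97) were higher. Fam216b led at 2.54. Dnaic2 (-1.36, a bound) and Rfx3 (-1.37) were lower, but a second probe of Rfx3 read 0.49. Of 21 oviduct epithelial genes, 7 were higher and 3 lower (median 0.52, 0.00 with spike-in scaling). Crisp1 was at 3.68 as a bound and Tspan1 at 2.47, while Ovgp1, the oviduct glycoprotein, was at 0.26 and Pax8 at -0.92. The second probes of Ovgp1 and Pax8 read -0.31 and -1.80. Ovgp1, Pax8, Foxj1, Hoxa10 and Foxa2 were well above background in both pools. These lower uterine-side and higher ciliary values stand beside the epithelial results above, and their part in them was not tested.

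**Figure D3:**
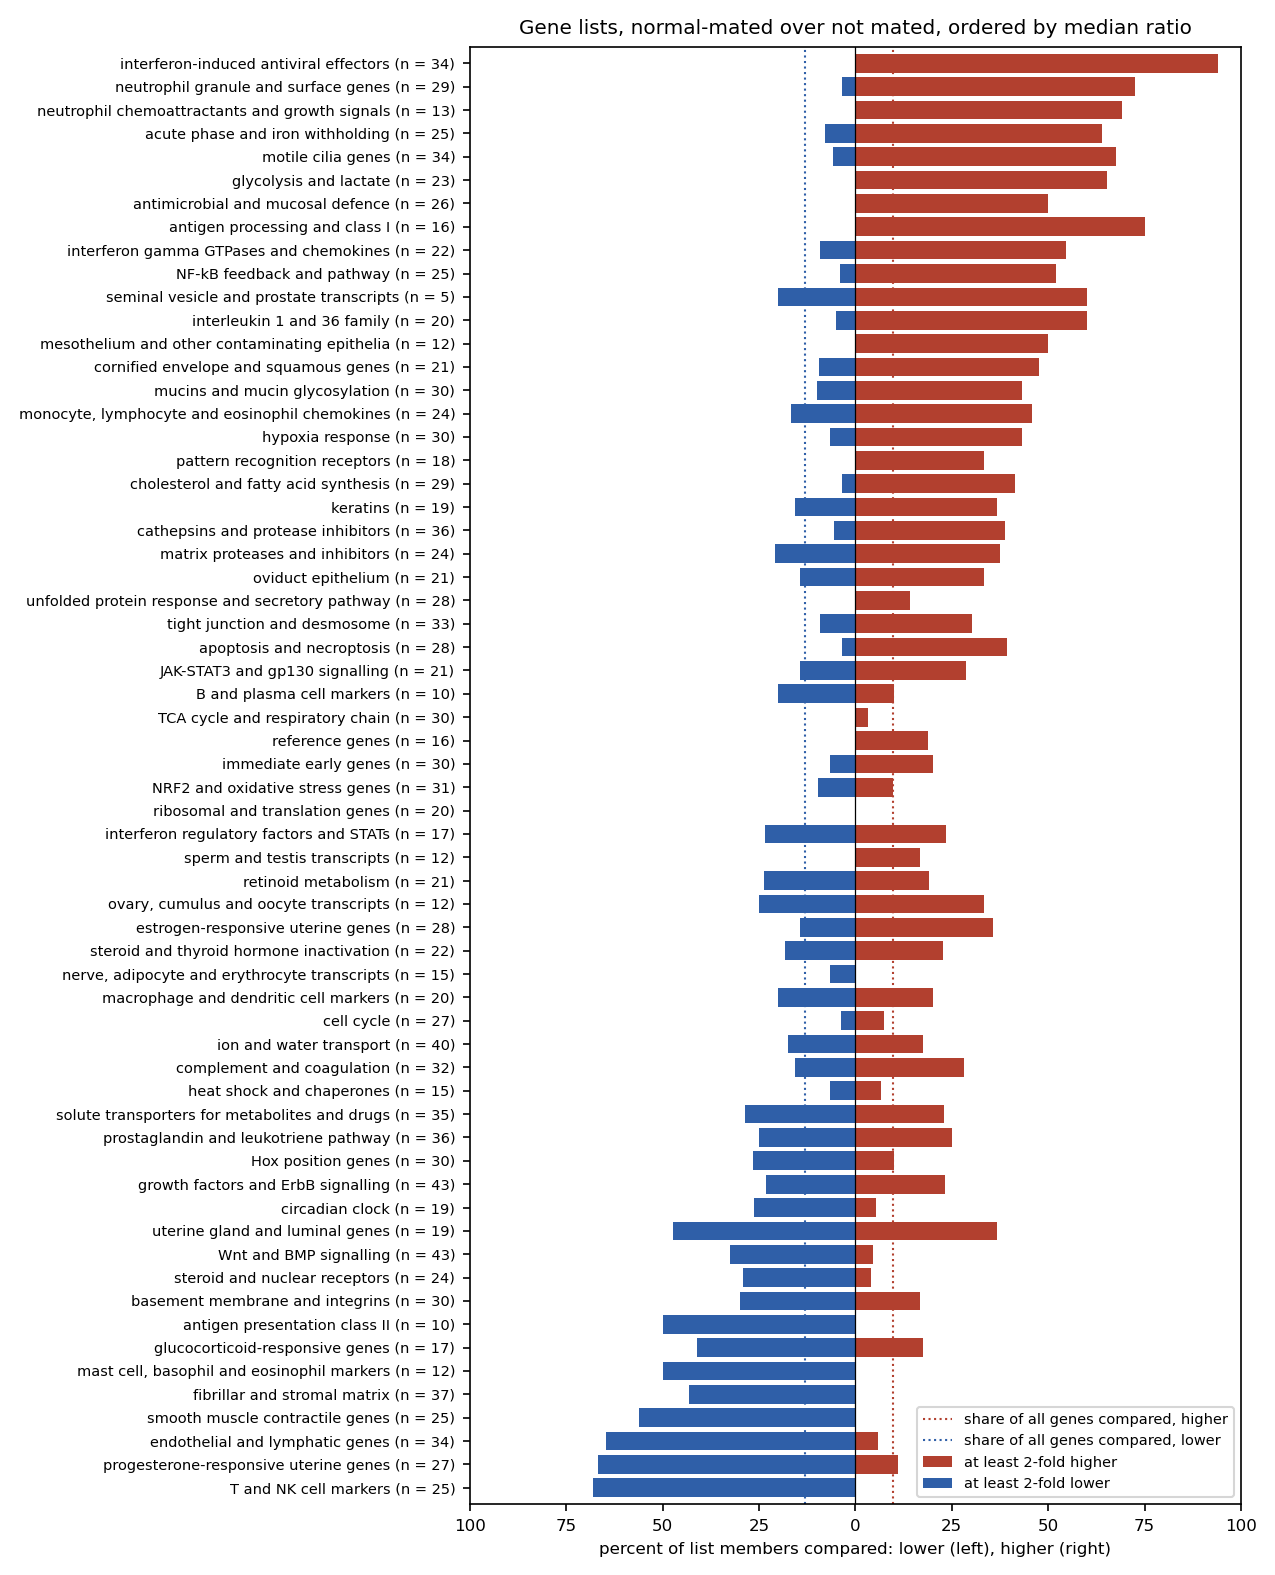
Percent of the compared members of each gene list that were at least 2-fold higher (red, to the right) or lower (blue, to the left), ordered by list median, with dotted lines at the shares over all genes (9.81% and 13.2%). The antiviral effectors have 32 of 34 members higher, and the T and NK markers 17 of 25 lower.

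Transport genes diverged by member. In the ion and water list 7 of 40 were higher and 7 lower, with a median of -0.08 that read 0.02 with normexp. The anion exchangers Slc26a4 (1.39 and 6.16) and Slc26a9 (-2.27 and 1.89) and the chloride channel Cftr (-0.28 and 1.80) had higher levels after normal mating. Aqp4 was higher with all 3 probes, from 3.27 to 4.09. Kcne2, a potassium channel subunit, had levels of 0.90 and -4.90, and Car4, a membrane carbonic anhydrase, was at least 48.4-fold lower. Among 35 solute carriers and drug pumps, 8 were higher and 10 lower (median -0.19). Abcb1b, a drug efflux pump, had levels of 3.69 and -1.92, with its 3 probes from -5.61 to -3.70, and Abcb4 was at -4.58.

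Of 36 prostaglandin and leukotriene genes, 9 were higher and 9 lower (median -0.25). Ptgs2, the secreted phospholipase Pla2g2e (-5.17 and 2.90), Ltc4s (3.15), which makes leukotriene C4, and the synthase Ptges2 (1.56) were among the higher genes. The phospholipase Pla2g10 (-4.01), the receptors Ptger2 (-2.06) and Ptgfr (-1.31) and the prostaglandin D synthases Hpgds (-1.45) and Ptgds (-1.34) were among the lower ones. Synthases and receptors were also found within 2-fold, such as Ptges (0.81), Ptgis (0.09), Ptger3 (-0.09) and Ltb4r1 (0.96).

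Stromal, muscle and vessel genes were low in most of the members that differed. Of 37 fibrillar matrix genes, 16 were lower and 0 higher (median -0.98), and 8 of the 17 with several probes were lower with every probe. Col1a2 had probes from -1.5 to -1.4, Col5a1 was at -1.63 and Pdgfra, the receptor that marks fibroblasts, had both probes at -2.10 and -1.94. Decorin (Dcn, -0.20), Lum (-0.36) and Col3a1 (-0.23) lay within 2-fold, although another probe of Col3a1 read -1.32. Of 25 smooth muscle genes, 14 were lower and 0 higher (median -1.08). Myocd, the master regulator of the contractile programme, had levels of -0.24 and -2.83 and probes at -2.59 and -1.81, while Tagln was at 0.16 and Actg2 at -0.54. Of 34 endothelial genes, 22 were lower and 2 higher (median -1.28). Ptprb (-2.34), Pecam1 (-2.23), Angpt2 (-2.20), Erg (-2.05) and Robo4 (-2.02) were lowest, and Apln (1.33) and Sox7 (1.02) were the higher members. The summed level was 463 and 320 for matrix, 757 and 507 for smooth muscle and 74.2 and 38.3 for endothelium, in the not mated and normal-mated pool.

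Basement membrane genes differed by chain, with 5 of 30 higher and 9 lower (median -0.76, or -0.38 with normexp). The epithelial chain Lamb3 (1.28) and the integrin Itgb6 (1.64) were higher, and Nid1 (-1.77), Col4a2 (-1.52) and Col4a1 (-1.21) were lower. Of 24 matrix proteases and inhibitors, 9 were higher and 5 lower (median 0.64, or 0.41 with no filter). Timp4 (2.85), the epithelial protease Mmp7 (2.34) and Timp1 with all 3 probes at 2.24 or above were higher, and Timp3 (-2.21), Adamts1 (-1.70) and Mmp2 (-1.62) lower.

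**Figure D4:**
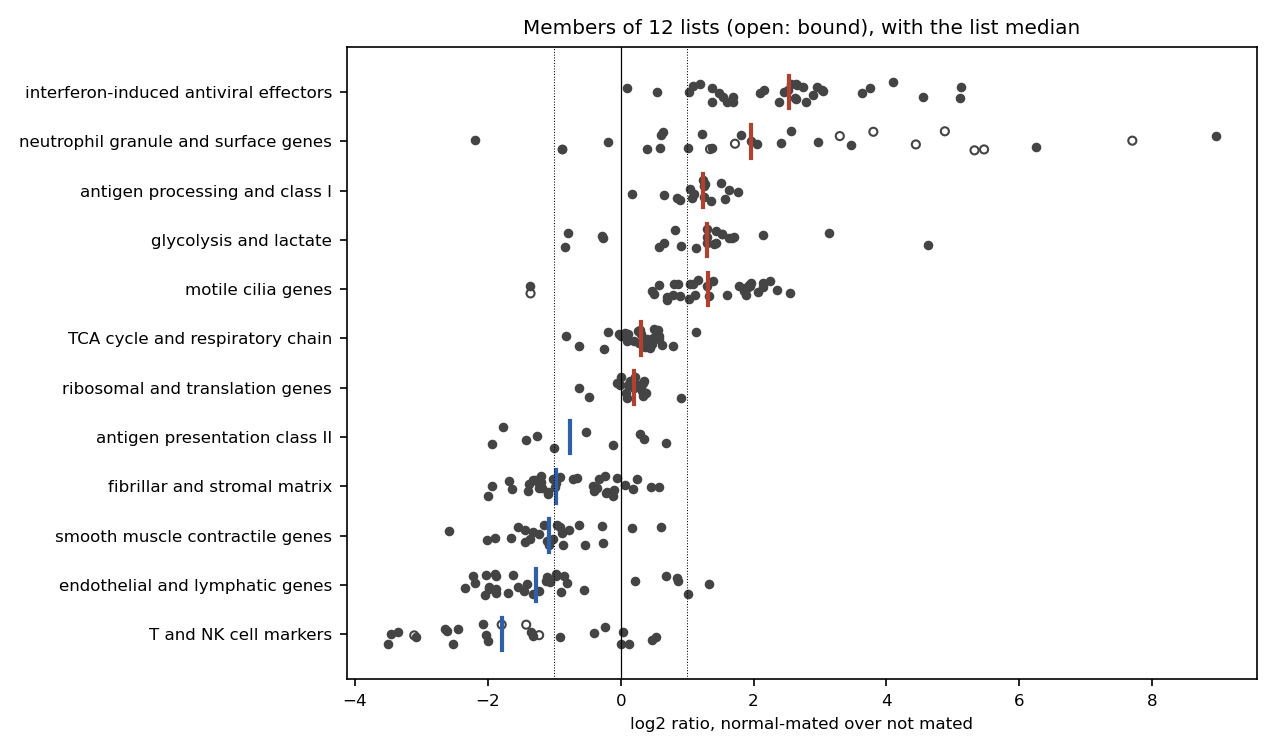
Log2 ratio (horizontal axis) of every compared member of 12 gene lists; open circles are bounds, coloured bars are list medians and dotted lines are 2-fold. The medians run from 2.54 for antiviral effectors to -1.79 for T and NK markers, and ribosomal genes centre on 0.21.

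Of 43 Wnt and BMP genes, 2 were higher and 14 lower (median -0.57). Wnt10a (-2.73), the secreted inhibitor Sfrp2 (-2.36), Dkk2 (-1.82) and Bmp2 (-1.65) were lower, and Wnt4 (1.83) and Dkk3 (1.63) higher. Of 43 growth factor genes, 10 were higher and 10 lower (median -0.47). The ErbB ligands Areg, Btc (1.54) and Hbegf (1.02) were higher. Fgf10 (-2.71), its receptor Fgfr2 with all 3 probes at -1.86 or below, and the target Etv5 (-2.33) were lower.

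Of 30 immediate early genes, 6 were higher and 2 lower (median 0.25, or -0.26 with spike-in scaling). Gdf15 (2.18) and Fos (1.74) were higher, Egr1 (-0.19) and Jun (-0.14) within 2-fold, and Myc lower with all 3 probes at -1.43 or below. Of 27 cell cycle genes, 2 were higher and 1 lower, with a median of -0.08 that read 0.02 with cyclic loess. The higher genes were the inhibitors Cdkn1a (2.82) and Cdkn2b (2.56), and the lower gene was cyclin D2, Ccnd2 (-1.62). Of 28 genes of apoptosis and necroptosis, 11 were higher and 1 lower (median 0.40, or -0.12 with spike-in scaling). The necroptosis effectors Mlkl (-2.27 and 0.53) and Ripk3 (1.84), the p53 target Pmaip1 (2.41) and Tnfsf10 (2.10) were higher, and Fasl was at -1.80 as a bound.

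Few transcripts of sperm or male glands were measured. Of 22 sperm and testis genes listed, 12 could be compared, 2 were higher and 0 lower (median 0.19, or -0.33 with spike-in scaling). Prm1 (-0.66) and Tnp1 (0.14), which package sperm DNA, lay within 2-fold. The other protamine, Prm2, was well above background only after normal mating, with a lower bound of 0.17 that leaves its difference unknown. The higher genes were Spata18 (2.14) and Ldhc (1.99). Of 16 seminal vesicle and prostate genes listed, 5 could be compared, with 3 higher and 1 lower. Sbp (3.99) and Svs5 (1.11, a bound) were among the higher ones and Ceacam10 (-2.15) was lower. Svs2 and Svs4 were not well above background in either pool. The median of 1.11 became -0.34 when bounds were left out and -0.68 with no filter on dim probes. Sbp also read -0.23 in the vasectomized-mated pool against -3.65 without mating and 0.35 after normal mating.

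Of 12 ovarian and oocyte genes, 4 were higher and 3 lower (median 0.15, or -0.47 with spike-in scaling), and the ratio of Zp3, 1.73 as a bound, was -0.044 by the probe measured on both arrays. Of 15 nerve, fat and red cell genes, 0 were higher and 1 lower (median 0.06, or -0.54 with spike-in scaling). Of 20 ribosomal and translation genes, 0 were higher and 0 lower, with a median of 0.21 that read -0.27 with cyclic loess and -0.31 with spike-in scaling. Among 16 reference genes 3 were higher and 0 lower (median 0.28, or -0.24 with spike-in scaling). Those were Pgk1, Gapdh (1.53) and Tfrc (1.53), which the glycolysis and iron lists also hold or border, while Tbp (-0.17), Polr2a (-0.05) and Ppia (0.21) lay near 0.

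The share of genes called lower depended on how bright they were. In the dimmest quartile of genes measured on both arrays, 7.66% were higher and 21.9% lower. In the brightest quartile 9.55% were higher and 4.03% lower. With cyclic loess, which removes the trend of the ratio with level, the dimmest quartile had 13.7% lower and 10.9% higher, and the brightest 5.72% and 7.52%. Of all genes past 2-fold, 42.7% were higher, against 52.9% with cyclic loess, 59.4% with normexp and 16.1% with spike-in scaling. Of the genes called with every probe, 188 of 317 higher and 113 of 384 lower ones were still called with every probe under each of the 4 other scalings and corrections.

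**Figure D5:**
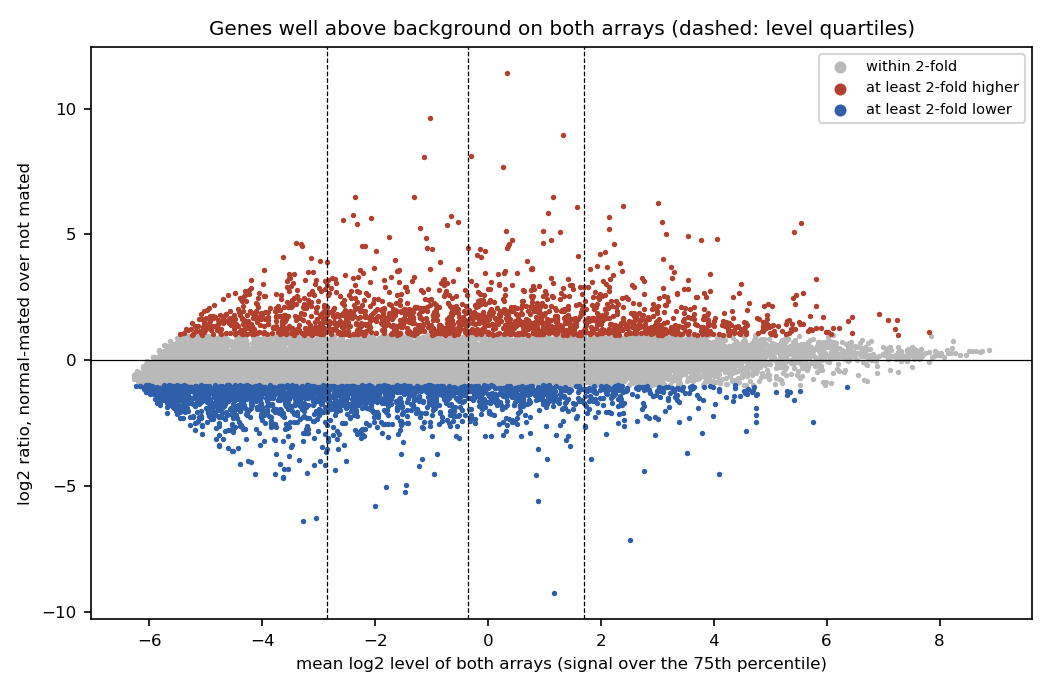
Log2 ratio (vertical axis) against the mean log2 level of both arrays (horizontal axis) for each gene well above background on both, coloured by call; dashed lines divide the level quartiles. Lower calls are denser at the dim end, with 21.9% of the dimmest quartile at least 2-fold lower against 4.03% of the brightest.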

How the data were processed

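Feature Extraction, Agilent's scanner software, made the deposited intensity values: per the file headers they are processed signals from which background was taken off array by array, with no scaling from array to array. Its version is 10.5.1.1 in the headers and 9.5.3 in the submitters' processing notes. Here each deposited intensity was turned into a log2 level by subtracting the 75th percentile of log2 signals on that array. Spots of a probe were averaged without those carrying outlier marks. With 1 array per group, precision is limited by the number of arrays, and neither p-values nor standard errors are given.

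A gene took the value of its brightest probe, preferring probes well above background on 1 or both arrays. A bound set the bright level against the higher of the lowest level well above background on the dim array and the dim level itself. Genes without a fold by that rule were left out. Probes were named through RefSeq (GRCm38.p6): 22951 through their accession, 124 through another accession, 6582 through a current symbol and 3077 through a synonym. The other 8440 carry the files' own name. Probe coordinates are those of the files (mm7).

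The members and the 62 gene lists (1548 genes, 1514 on the array and 1401 compared) were chosen with earlier results of these data known. Named genes are, per direction, the 25 with the largest weakest-probe ratio among genes with several probes well above background on both arrays, the 10 largest bounds with agreeing probes, and the 10 largest ratios among probes printed 10 times. Up to 6 members per list with the largest ratios and no probe of opposite sign were added, with tissue markers and reference genes. Other list members were named after their values were seen. A few results that fall under this rule were left out of the text.

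Alternatives were normexp (offset 50), quantile, cyclic loess and median scaling, a filter for both arrays, no filter, and the median over probes. Scaling to spike-in probes was added after seeing the data. R 4.3.3 (limma 3.58.1) and Python 3.11.15 (pandas 2.3.3, matplotlib 3.10.9) were used. The counting step was tested on simulated data in which every gene was measured on both arrays, so the rule for bounds was not tested.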

Additional observations from a re-analysis of the deposited data

How the results depend on the processing

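The counts of genes at least 2-fold higher (1894) and lower (2546) stayed within 1.5 times under 7 and 6 of 8 alternatives. The lower count was 933 with normexp, and with spike-in scaling the counts were 1050 higher and 5473 lower. Counts with every probe past 2-fold (317 and 384) were 207 and 119 with normexp and 157 and 1065 with spike-in scaling, and the cause was not tested. The median of all genes shifted by -0.53 with spike-in scaling, by -0.18 with no filter on dim probes and by 0.10 with median scaling. Of 375 named genes past 2-fold, 329 were still past it with normexp, 368 with quantile, 367 with cyclic loess, 370 with median and 352 with spike-in scaling, and none of those 5 settings reversed a named gene. Zp3 reversed to -0.044 where genes had to be well above background on both arrays, and the seminal vesicle list median to -0.34 there and to -0.68 with no filter. No paired analysis was possible because each group had 1 array. For the same reason no array could be left out. Genes close to background in 1 pool have only bounds, and dim genes are the least certain.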
